A study of Bos taurus with 60 samples.

Results

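The genes described here were 97 of the 14363 genes tested in the endometrium, the lining of the uterus, of 60 beef heifers. They were chosen because they rose and fell together with 1 reference gene, ENSBTAG00000008471, and were still expressed at a substantial level in the heifers in which that gene was low. Their log2 CPM correlated with that of the reference gene with a Pearson r above 0.8 over all heifers. CPM is the count of a gene scaled to the size of its library, by the trimmed mean of M-values. Their mean CPM was 10 or more in the 14 heifers with the reference gene under log2 CPM 5.5. The 100 genes with the largest total counts and 6 listed genes, among them the reference gene, were left out.

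All heifers were nulliparous continental crossbreds that had been inseminated at a synchronised oestrus. For 30 days before insemination they received a concentrate diet with a fish-oil product rich in n-3 polyunsaturated fatty acids (PUFA) or, as controls, with a palmitic acid supplement. Afterwards each heifer stayed on a high plane of nutrition or was moved to a low plane, below maintenance, until the endometrium was collected 16 days later. The study kept the lipid supplement in the low-plane ration at its earlier level, and high-plane heifers stayed on their earlier diet. The titles give 14 control heifers on the low plane (CON_Low), 14 on the high plane (CON_High), 15 n-3 PUFA heifers on the low plane (PUFA_Low) and 17 on the high plane (PUFA_High), with 1 library per heifer. The design text gives the sizes of the 2 n-3 PUFA groups the other way round. The group sizes that the study states match the titles, while its pregnancy counts for these 2 groups run the other way. The diet comparisons, with and without the covariate used below, were therefore also computed with the planes of these 2 groups exchanged. Ages were not in the sources used here. The study found pregnant and non-pregnant heifers in every diet group, but the labels do not give the status of single heifers, so it was not used. The tissue was sampled in bulk, so fewer cells of a type and less RNA per cell cannot be told apart.

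In cattle the elongating conceptus secretes interferon tau, the signal by which the mother recognises pregnancy. It binds the type I interferon receptor on endometrial cells, and the receptor's kinases activate transcription factors that switch on a large set of interferon-stimulated genes. Many such genes are nearly silent without interferon, while others, typically those of antigen presentation and of the signalling pathway itself, are transcribed at a steady basal level that interferon then raises. The files list genes by Ensembl identifier alone, and the reference table used here paired none of those identifiers with a symbol. The members could therefore not be sorted by function, no marker of interferon response or of endometrial cell types could be checked, and the genes are called here by the reference gene they follow.

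The libraries held 9635801 to 13943813 counts, and of the 24616 genes that were listed, 3947 had no count in any heifer. The 100 most abundant genes took 25.8% ± 3.31 (SD, n = 15) of the counts in PUFA_Low, against 20.8% ± 1.91 (n = 17) in PUFA_High, 21.8% ± 2.15 (n = 14) in CON_Low and 22.0% ± 2.99 (n = 14) in CON_High. No pair of heifers within a group was a repeat of 1 library.

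The reference gene, ENSBTAG00000008471, had 2 separate ranges of expression. In 14 heifers it lay between log2 CPM 1.58 and 4.19, in the other 46 between 7.33 and 11.21, and no heifer lay between these ranges. On the linear scale this was 2.81 to 2372 CPM. Heifers of the lower range were found in every diet group, with 3 of 14 in CON_High, 4 of 14 in CON_Low, 3 of 17 in PUFA_High and 4 of 15 in PUFA_Low. In CON_High its lowest, median and highest log2 CPM were 1.58, 9.46 and 11.21. In CON_Low they were 3.18, 9.75 and 11.03, in PUFA_High 2.49, 9.64 and 10.77, and in PUFA_Low 2.45, 9.51 and 11.14. The 4 groups overlapped almost completely, and no diet comparison of the reference gene passed the test, with a log2 fold change of low over high plane of -0.09 (95% interval -1.54 to 1.36, adjusted p = 0.946) in n-3 PUFA heifers and -0.21 (-1.76 to 1.34, adjusted p = 0.990) in controls.

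Of the genes tested, 156 passed the limit on r, the reference gene counted, and 102 of these also reached the limit on CPM. Removing 5 abundant or listed genes left the 97 members. A further 52 genes passed the limit on r but had a lower mean CPM in the 14 heifers, and they are used below as the nearest comparison. The members' r with the reference gene ran from 0.801 to 0.991 with a median of 0.898. Their mean CPM in the 14 heifers ran from 10.3 to 246 with a median of 38.7. These CPM values are not corrected for gene length, so they do not rank the genes by transcript number. The 3 members nearest to the limit on r had values of 0.801, 0.802 and 0.802, and the 3 nearest genes outside it had 0.7999, 0.799 and 0.796. The 3 members nearest to the limit on CPM had 10.3, 10.5 and 11.9, and the 3 nearest outside it had 9.92, 9.62 and 9.39. Neither edge lay at a break in the values, and all of these values come from the rule.

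**Figure D1:**
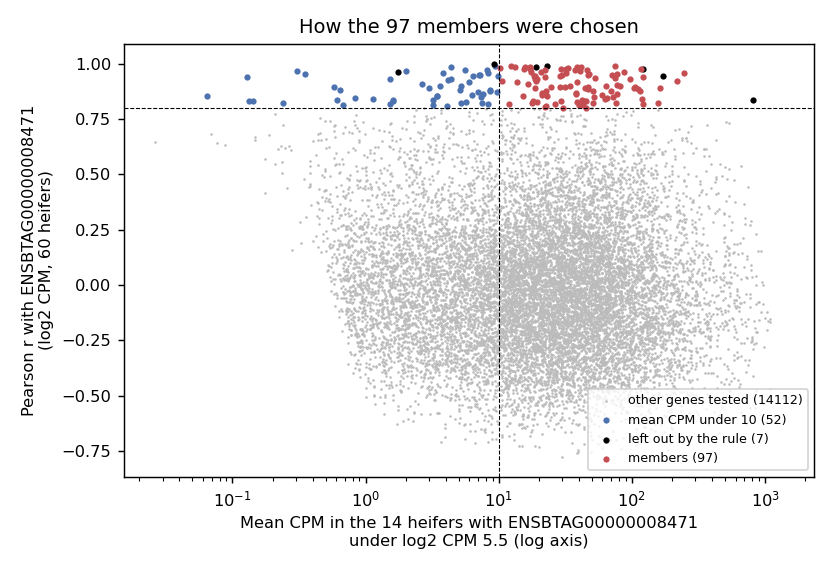
Each point is 1 gene, with its mean CPM in the 14 heifers in which ENSBTAG00000008471 was under log2 CPM 5.5 (x, log axis) and its Pearson r with that gene over 60 heifers (y). The 97 members (red) fill the upper right corner set by the dashed limits, 52 genes (blue) passed on r alone, and 7 black points (the reference gene at r = 1 and 6 others) were left out by the rule.

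Of the genes the rule left out for their abundance, ENSBTAG00000030913 had an r of 0.974 and ENSBTAG00000016061 an r of 0.989 with the reference gene, so the 97 members are not all of the genes that followed it at a substantial level. Together the members took between 0.416% and 3.48% of the counts of a heifer, with a median of 1.87%. The medians were 1.78% in CON_High, 2.13% in CON_Low, 2.07% in PUFA_High and 1.74% in PUFA_Low, and the ranges of the 4 groups overlapped almost fully.

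The members varied widely over heifers. The ratio of a member's highest to its lowest CPM was 2.49 to 229 with a median of 11.2, beside a median of 3.70 over all genes tested. Because of the basal level these ratios rest on many reads. The lowest count of a member in any heifer was 32 to 1994 with a median of 225, while for the 52 genes with lower basal CPM it was 0 to 76 with a median of 18.5. The rule bears on the ratios through the high r with a widely varying gene. It bears on the counts through the minimum CPM, which the 52 genes failed. To place each heifer, the log2 CPM of each member was set against that member's mean over the 60 heifers, and the median over the 97 members was taken. This median deviation was -1.62 to -1.17 in the 14 heifers with the reference gene under log2 CPM 5.5, and -0.91 to 1.12 in the other 46. Across the 46 it followed the reference gene closely (Pearson 0.979, Spearman 0.969), for genes chosen by their r with it. Across the 14 the relation was weaker (0.243 and 0.385) and rested on single heifers. It was 0.608 and 0.659 without PUFA_High replicate 2, which had the highest reference gene of the 14 at log2 CPM 4.19 and a median deviation of -1.62, and -0.127 and 0.231 without CON_High replicate 9, which had the lowest at 1.58.

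**Figure D2:**
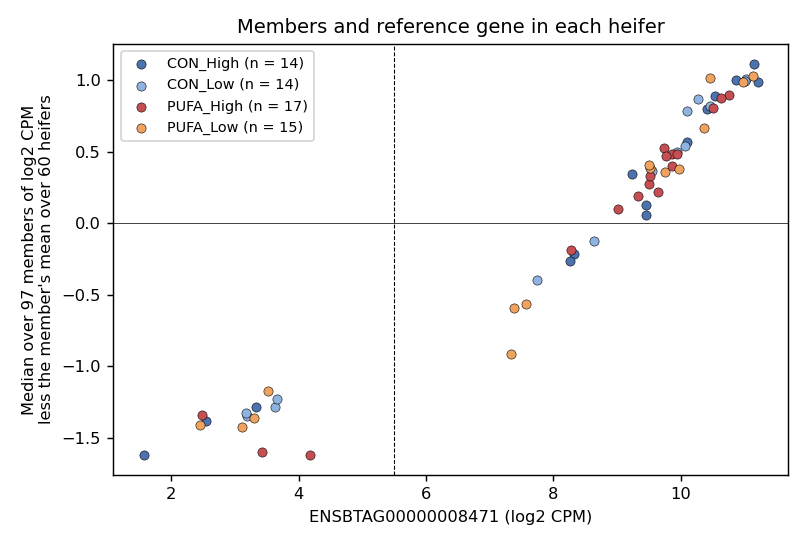
Each point is 1 heifer, with the log2 CPM of ENSBTAG00000008471 (x) and the median over the 97 members of log2 CPM less the member's mean over heifers (y), coloured by diet group. The 46 heifers to the right of the dashed line at 5.5 form a rising band from -0.91 to 1.12, the 14 to the left lie from -1.62 to -1.17, and all 4 diet groups occur in both.

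Since the heifers fell into 2 separate ranges of the reference gene, its relation to the members was also described inside each range. Among the 46 heifers of the upper range, r was 0.400 to 0.969 with a median of 0.866, and it was above 0.5 for 96 of the 97 members, against 6.34% of all genes tested, whose median was -0.03. Spearman's rho of the members there had a median of 0.842. Among the 14 heifers of the lower range, r was -0.766 to 0.824 with a median of 0.0944, and 17 of 97 members were above 0.5, beside 12.2% of all genes tested. There the median rho was 0.0769. Leaving out 1 heifer of the lower range at a time, the median r was 0.240 without PUFA_High replicate 2 and -0.06 without CON_High replicate 9, with 23 and 9 members above 0.5. It was 0.157 without PUFA_High replicate 15 and 0.147 without PUFA_High replicate 11, and between 0.0815 and 0.126 without any 1 of the others. The members thus followed the reference gene, and one another, in the upper range, while in the lower range the values of r were spread over both signs. Between pairs of members the median r was 0.768 in the upper range and 0.0734 in the lower range, beside -0.01 and -5.7e-05 over all pairs of genes tested. The 52 genes of lower basal CPM gave 0.726 and 0.110. The rule chose both sets by their r over all heifers, most of which lay in the upper range. High values there are therefore partly built into the choice. These correlations describe the genes chosen, carry no test, and share libraries and scaling. The smaller number of heifers and the narrower span of the reference gene in the lower range also go with them.

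The SD of a member's log2 CPM over the 14 heifers of the lower range had a median of 0.302, beside 0.392 over all genes tested and 0.501 over the genes of lower basal CPM. Over the 46 heifers of the upper range the same medians were 0.585, 0.362 and 0.813. The rule bears on these medians, since it required a minimum CPM in the 14 heifers and a high r with a gene that varies widely, so they are a description of the genes chosen.

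The members differed widely in how steeply they followed the reference gene. The slope, in log2 CPM of the member per log2 CPM of the reference gene over all heifers, was 0.101 to 0.839 with a median of 0.296, and 12 of 97 members were steeper than 0.5. Genes of lower basal CPM had a median slope of 0.363. Within the upper range of heifers alone the medians were 0.488 for members and 0.647 for those 52 genes. Across the 97 members the slope fell with the log2 of the basal CPM (Pearson -0.403, Spearman -0.374, across genes, which are not independent and whose slope and basal level come from the same libraries).

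**Figure D3:**
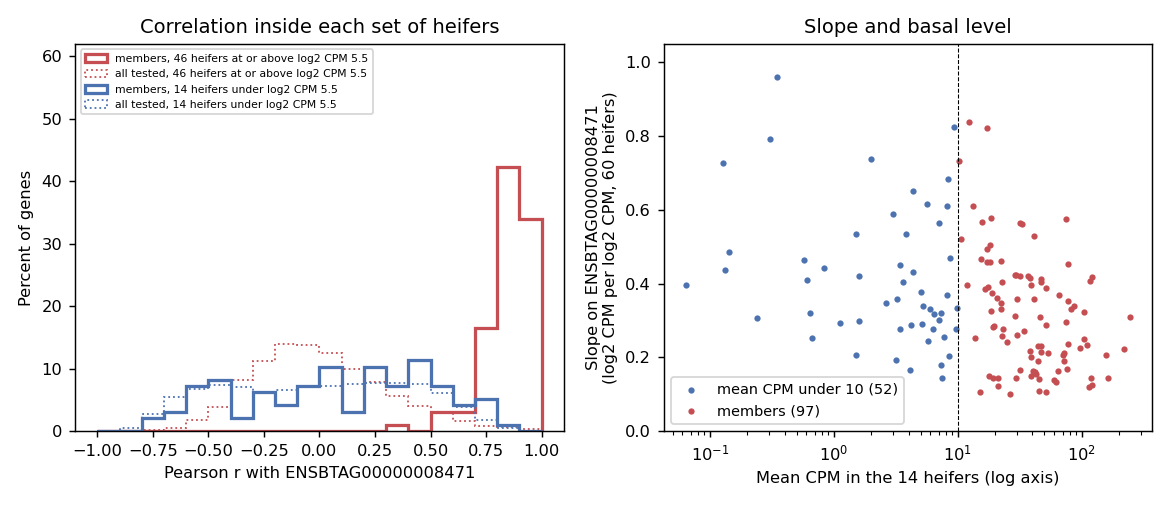
Left, the percent of genes in each 0.1-wide bin of Pearson r with ENSBTAG00000008471, for the 97 members (solid) and all genes tested (dotted), in the 46 heifers of the upper range (red) and the 14 of the lower range (blue). Right, each gene's slope on ENSBTAG00000008471 against its mean CPM in the 14 heifers (log axis), for the members (red, median slope 0.296) and the 52 genes of lower basal CPM (blue, median 0.363).

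The steepest member, ENSBTAG00000007881, had a slope of 0.839 and an r of 0.991. Its lowest, median and highest CPM were 7.02, 495 and 1336 in CON_High, 8.33, 583 and 1006 in CON_Low, 9.54, 622 and 1424 in PUFA_High, and 6.66, 468 and 1201 in PUFA_Low. ENSBTAG00000045588 was next with 0.823, and it spanned 7.30 to 1674 CPM over the 60 heifers. Both were low in some heifers and high in others of every group. At the other end, ENSBTAG00000016529 had a slope of 0.101 and reached only from 21.0 to 59.4 CPM. Its lowest, median and highest CPM were 25.6, 41.4 and 54.5 in CON_High, 23.9, 33.8 and 50.0 in CON_Low, 25.7, 39.0 and 56.4 in PUFA_High, and 21.0, 36.9 and 59.4 in PUFA_Low. ENSBTAG00000035744 had a slope of 0.105 and lay between 10.2 and 31.0 CPM. In all 4 genes the diet groups overlapped over most of their range.

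The question of the study for these genes was whether the supplement, the plane of nutrition or their combination changed them. A gene was called where edgeR's quasi-likelihood test gave a Benjamini-Hochberg adjusted p below 0.10 over all 14363 genes and the fold change exceeded 1.5. No member was called in any of the 7 diet comparisons. The share of all genes tested that was called was 5.61% for low against high plane in n-3 PUFA heifers, 2.57% for n-3 PUFA against control on the low plane, 8.04% for the interaction of supplement and plane and 0.369% for the average plane effect. It was 0% for plane in control heifers, for n-3 PUFA on the high plane and for the average n-3 PUFA effect. After the exchange of planes between PUFA_Low and PUFA_High, the share was 0.0418% for n-3 PUFA on the low plane, 1.43% on the high plane, 2.17% in the interaction and 0.856% in the average plane comparison, and 1 member was called, for n-3 PUFA on the high plane. At an unadjusted p below 0.05 edgeR counted, with the planes as in the titles, 3 members for plane in n-3 PUFA heifers, beside 35.6% of all genes tested, and 2 for the average plane effect, beside 17.1%. It counted 0 members in the other 5 comparisons, beside 4.91% to 29.1% of all genes. DESeq2's Wald test called 1 member, ENSBTAG00000008703, which was lower on the low plane in n-3 PUFA heifers, where it called 5.64% of all genes, and 0 in the other comparisons.

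The median log2 fold change of the 97 members was -0.09 for plane in n-3 PUFA heifers (59 negative), -0.10 for plane in controls (79 negative), -0.12 for n-3 PUFA on the low plane (66 negative) and -0.08 for n-3 PUFA on the high plane (78 negative). Over all genes tested the same medians were -0.03, -0.01, -0.01 and -0.0015. Because the members move together over heifers, a few heifers shift the whole set, and these counts are not independent observations. The members' standard error had a median of 0.316 on the log2 scale for plane in n-3 PUFA heifers, beside 0.131 over all genes tested. The part of their common variation in this was not tested.

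**Figure D4:**
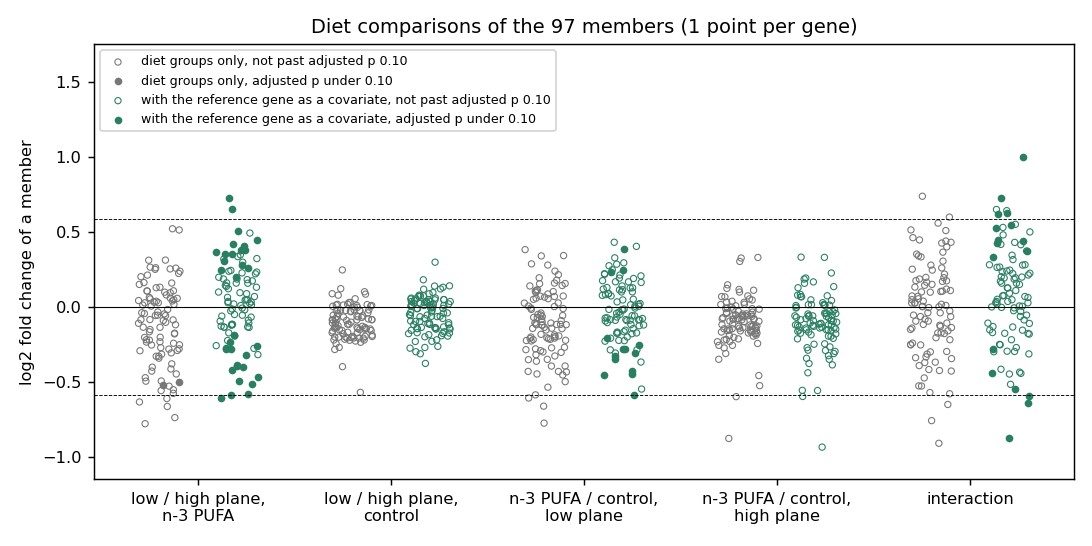
Each point is the log2 fold change of 1 member in 1 of 5 diet comparisons, from the fit of diet groups only (grey) and from the fit with ENSBTAG00000008471 as a covariate (green), filled where the adjusted p was below 0.10. Dashed lines mark a fold of 1.5. In the grey fit 2 points are filled, neither beyond the lines, while in the green fit 33, 14 and 17 points are filled for plane in n-3 PUFA heifers, n-3 PUFA on the low plane and the interaction.

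On the adjusted p alone, 2 of 97 members passed for plane in n-3 PUFA heifers, both lower on the low plane, where 31.3% of all genes tested passed in either direction and 16.3% were lower. ENSBTAG00000011876 had a lowest, median and highest CPM of 27.1, 49.4 and 110.2 in PUFA_Low, 35.5, 90.5 and 125 in PUFA_High, 35.7, 78.0 and 109 in CON_Low and 40.7, 76.2 and 139.5 in CON_High. PUFA_Low had the lowest median and overlapped each of the other groups. Its log2 fold change of low over high plane was -0.52 (SE 0.184, 95% interval -0.89 to -0.16, edgeR adjusted p = 0.0320). ENSBTAG00000000957 had 28.2, 49.1 and 105 CPM in PUFA_Low, 34.6, 80.5 and 109 in PUFA_High, 35.2, 67.8 and 103 in CON_Low and 37.1, 71.6 and 137 in CON_High. Here too PUFA_Low was lowest at the median, and the groups overlapped. Its log2 fold change was -0.50 (SE 0.193, -0.89 to -0.12, edgeR adjusted p = 0.0496). The first gene was lower on the low plane within 5 of 6 prefixes of the library codes and the second within 6 of 6. Each prefix held 2 or 3 n-3 PUFA heifers per plane. Both genes were picked in these same heifers, so the prefixes only describe the difference. When the percentage of counts taken by the 100 most abundant genes entered the model, the 2 log2 fold changes were -0.22 and -0.17 and neither passed.

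To compare the diets among heifers at the same level of the reference gene, its log2 CPM was entered as a covariate. The median standard error of the members then fell to 0.114 on the log2 scale for plane in n-3 PUFA heifers, below the 0.126 of all genes tested. The rule chose the members by their r with this covariate, so a fall in their error is built into the choice. How many members pass in this fit draws on the rule in the same way. The covariate is itself measured in the same endometrium, so a diet effect on it would be partly removed. In that fit 4 members were called for plane in n-3 PUFA heifers, beside 5.81% of all genes tested. On the adjusted p alone 33 of 97 passed, which is 34.0% beside 34.6% of all genes tested, with 16 higher (background 16.0%) and 17 lower (background 18.6%) on the low plane. For n-3 PUFA on the low plane 1 member was called (background 2.65%), and 14 passed on the adjusted p alone (background 20.3%), 3 higher (background 10.9%) and 11 lower (background 9.33%). For the interaction 7 were called (background 8.65%), and 17 passed on the adjusted p alone (background 23.7%). For the average plane effect 0 were called (background 0.313%) and 6 passed on the adjusted p alone (background 5.70%). In this straight-line fit the members' share was near or below that of all genes in each comparison. The rule bears on these shares, so no conclusion about the members is drawn from them. When the square of the covariate was added, a choice made after seeing the data, the members' share on the adjusted p alone was 41.2% beside 35.9% of all genes for plane in n-3 PUFA heifers, 22.7% beside 22.3% for n-3 PUFA on the low plane, 27.8% beside 22.8% for the interaction and 11.3% beside 6.71% for the average plane effect. These differences between members and all genes were not tested. For plane in controls, n-3 PUFA on the high plane and the average n-3 PUFA effect 0 members and 0% of all genes passed, with 3, 13 and 4 members at an unadjusted p below 0.05 by edgeR, beside 5.26%, 11.4% and 9.62% of all genes. With the planes exchanged and the covariate, 0, 2 and 0 members were called in the low-plane n-3 PUFA, interaction and average plane comparisons, beside 0%, 2.40% and 0.773% of all genes, and the plane effects in n-3 PUFA heifers change sign by construction.

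In the fit with the covariate, the 2 members lower on the low plane with the smallest p in n-3 PUFA heifers were ENSBTAG00000016656 and ENSBTAG00000008703. ENSBTAG00000016656 had a lowest, median and highest CPM of 24.7, 173 and 477 in PUFA_Low, 46.8, 328 and 479.7 in PUFA_High, 41.7, 307 and 493 in CON_Low and 26.1, 250.1 and 528 in CON_High. Its groups overlapped across nearly the whole range. At equal levels of the reference gene its log2 fold change was -0.61 (SE 0.117, 95% interval -0.84 to -0.37, edgeR adjusted p = 0.000157), and without the covariate it was -0.74 (SE 0.388, adjusted p = 0.162). ENSBTAG00000008703 had 7.90, 56.6 and 143 CPM in PUFA_Low, 16.8, 122 and 176 in PUFA_High, 15.1, 106 and 145 in CON_Low and 16.9, 93.6 and 162 in CON_High. Its log2 fold change was -0.59 (SE 0.116, -0.82 to -0.36, edgeR adjusted p = 0.000222), and without the covariate -0.78 (SE 0.354, adjusted p = 0.101). After removal of a straight line on the reference gene, the log2 CPM of both was lower on the low plane within 6 of 6 library code prefixes. Both genes were picked for their p in these same heifers, so this is a description.

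Among the members higher on the low plane in n-3 PUFA heifers, ENSBTAG00000018417 and ENSBTAG00000025762 had the smallest p. ENSBTAG00000018417 had 105, 248 and 418 CPM in PUFA_Low, 72.4, 222 and 371 in PUFA_High, 85.7, 259 and 352 in CON_Low and 74.0, 233 and 387 in CON_High, with wide overlap. Its log2 fold change with the covariate was 0.38 (SE 0.0843, 95% interval 0.21 to 0.54, edgeR adjusted p = 0.000932). ENSBTAG00000025762 had 105, 185 and 345 CPM in PUFA_Low, 90.2, 173 and 271 in PUFA_High, 92.3, 199 and 256 in CON_Low and 105, 199 and 258 in CON_High. Its log2 fold change was 0.36 (SE 0.0862, 0.19 to 0.53, edgeR adjusted p = 0.00174). Without the covariate the 2 values were 0.21 (SE 0.240, adjusted p = 0.556) and 0.26 (SE 0.157, adjusted p = 0.234). After removal of a straight line on the reference gene, both were higher on the low plane within 5 of 6 prefixes, in the heifers that picked them. The log2 CPM itself was lower within 4 of 6 for ENSBTAG00000018417 and within 1 of 6 for ENSBTAG00000025762. Neither reached a fold of 1.5. For n-3 PUFA against control on the low plane, a comparison that shares the PUFA_Low heifers, the same fit gave -0.43 for ENSBTAG00000016656 (adjusted p = 0.0159) and 0.24 for ENSBTAG00000025762 (adjusted p = 0.0625).

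**Figure D5:**
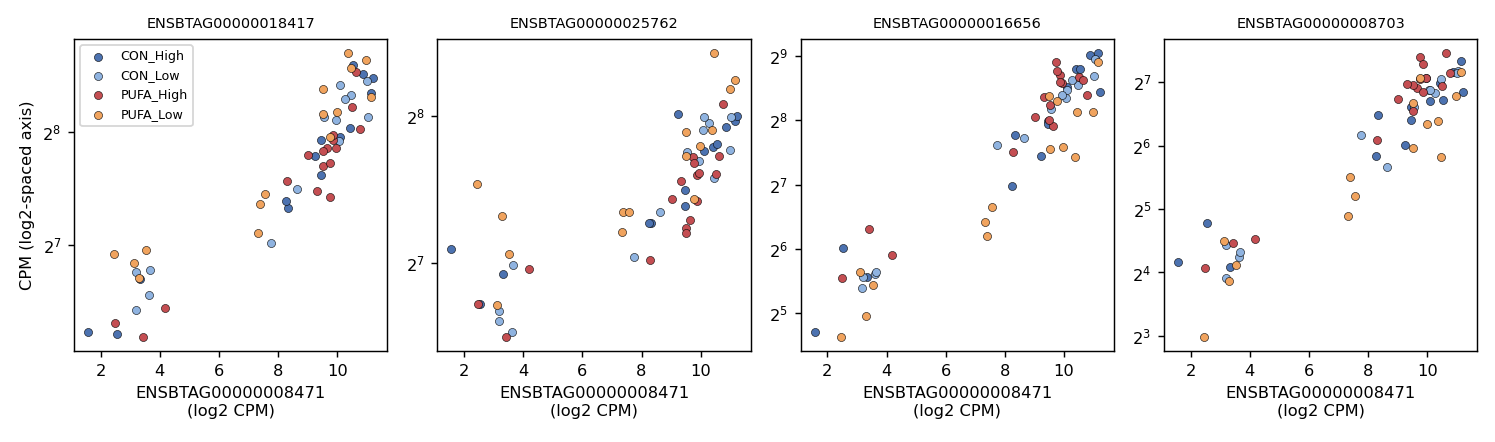
Each panel is 1 member, with its CPM (y, log2-spaced axis) against the log2 CPM of ENSBTAG00000008471 (x) in 60 heifers coloured by diet group. PUFA_Low points (orange) lie mostly above PUFA_High points (red) at equal x in the panels of ENSBTAG00000018417 and ENSBTAG00000025762 and mostly below them in those of ENSBTAG00000016656 and ENSBTAG00000008703.

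These differences moved with the share of counts that the most abundant genes took, which was highest in PUFA_Low. With that share as a further covariate, 1 of 97 members passed on the adjusted p alone for plane in n-3 PUFA heifers (background 1.18%), it was not among the 33 above, and 0 were called with the fold limit (background 0.327%). For n-3 PUFA on the low plane and the interaction 0 members and 0% of all genes passed by edgeR, with 0 and 2 members at an unadjusted p below 0.05, beside 5.60% and 4.78% of all genes. For the average plane effect 1 member passed on the adjusted p alone (background 3.50%) and 0 with the fold limit (background 0.195%). The log2 fold changes of plane in n-3 PUFA heifers became -0.24 for ENSBTAG00000016656, -0.37 for ENSBTAG00000008703, 0.31 for ENSBTAG00000018417 and 0.20 for ENSBTAG00000025762. After removal of the reference gene's slope, the log2 CPM of 19 of 97 members had an r beyond 0.5 in size with that share, 7 positive and 12 negative. This was a smaller proportion than among all genes, where it held for 3988 of the 14363 tested. Diet and this share cannot be told apart in PUFA_Low, and the part of the share in the result was not tested.

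Whether the members followed the reference gene equally steeply under each diet was tested as a difference of slopes. Each slope was 1 straight line over both ranges of the reference gene. The members' median slope was 0.488 inside the upper range alone, so such a line also carries the step between the ranges. Differences of slope inside a range were not tested. No member passed for n-3 PUFA against control, where 0.0975% of all genes did, or for low against high plane, where 0.306% did. At an unadjusted p below 0.05 edgeR counted 6 and 1 members, beside 11.0% and 7.99% of all genes. The median difference of slope over the members was 0.0052 between supplements and 0.014 between planes, with median standard errors of 0.0276 and 0.0278, beside a median slope of 0.296. The smallest p between supplements was that of ENSBTAG00000007836, whose slope was steeper by 0.12 with n-3 PUFA (95% interval 0.03 to 0.22, adjusted p = 0.336). Between planes it was that of ENSBTAG00000020538, steeper by 0.0847 on the low plane (0.03 to 0.14, adjusted p = 0.323). The members were chosen on the r pooled over diets, and a strong difference of slopes lowers that r, so the test covers differences that an r above 0.8 allows.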

How the data were processed

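Single-end mRNA libraries from endometrium were sequenced and, per the labels, processed by the authors with CASAVA 1.4, TopHat2 2.0.9 against UMD3.1 and HTSeq 0.5.4p5. The deposited values are raw counts per Ensembl gene, used as deposited. Strand use in counting was not stated, so overlapping antisense genes cannot be separated, and paralogs may share reads. Genes were filtered with filterByExpr on the 4 diet groups, scaled by TMM and tested with edgeR 4.0.16 in R 4.3.3 (quasi-likelihood, 1 coefficient per group, all 60 heifers, Benjamini-Hochberg over all genes tested). Log2 CPM used a prior count of 2. A call needed an adjusted p below 0.10 and a fold above 1.5. The study's stricter 0.001 and DESeq2 1.42.0 were alternatives, with other scaling, filters, blocks and covariates. The members, gene lists and tests were chosen with earlier results of these data known. Named genes were the 2 per direction with the smallest p, and the extremes of slope. No identifier was paired with a symbol among the 37063 genes of the ARS-UCD2.0 reference table, so planned functional lists, cell type markers and promoter motifs were not run. Parts of the procedure were run on simulated data with 200 changed genes. Counts there were drawn gene by gene, and calls used the adjusted p alone, without the fold limit. For the fit of diet groups only, the joint movement of the members over heifers was not simulated. Same-numbered heifers did not deviate together (mean r -0.05 over 85 pairs), so the numbers were not treated as pairs. Intervals are for the fitted difference between groups or slopes, with an error drawn from the spread between heifers. They do not give the range of single heifers.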

Additional observations from a re-analysis of the deposited data

Results flagged for a closer look

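In the fit with ENSBTAG00000008471 as a covariate, 7 of the 97 members (7.22%) were called for the interaction of supplement and plane. The limits were an edgeR adjusted p below 0.10 and a fold above 1.5. Of all genes tested 8.65% were called, so the members were not called more often than other genes. The rule chose the members by their r with this covariate, so the count draws on the rule. The interaction is the log2 change of low over high plane in n-3 PUFA heifers less that in controls. It was positive in 4 of the 7, with log2 values of 0.62, 0.62, 0.72 and 1.00, and negative in 3, with -0.60, -0.64 and -0.88. The value of 1.00 (SE 0.303, 95% interval 0.39 to 1.61, adjusted p = 0.0211) belonged to ENSBTAG00000019017, whose lowest, median and highest CPM were 25.7, 149.9 and 600.0 in PUFA_Low, 12.9, 124 and 324 in PUFA_High, 17.8, 164 and 369.5 in CON_Low and 17.3, 209.7 and 413 in CON_High. Its groups overlapped widely, and without the covariate the interaction was 0.74 (SE 0.633, adjusted p = 0.462). The value of -0.60 belonged to ENSBTAG00000016656, with an adjusted p of 0.0152. Once the percentage of counts taken by the 100 most abundant genes also entered the model, 0 of the 97 members and 0% of all genes passed the interaction by edgeR (2 members at an unadjusted p below 0.05, beside 4.78% of all genes), and these 2 genes had values of 0.36 and -0.24. After the exchange of planes between PUFA_Low and PUFA_High, with the reference gene as a covariate, 2 members were called for the interaction, beside 2.40% of all genes.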

How the results depend on the processing

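The count of 0 called members held in all 7 diet comparisons under DESeq2 size factors, no low-count filter, adjusted p limits of 0.05 and 0.001, the library code prefix as a block and the abundant-gene share as a covariate. The replicate block also left 0. Exceptions were 1 member by DESeq2 for plane in n-3 PUFA heifers, 1 for n-3 PUFA on the high plane with the planes exchanged, and 2 for plane in n-3 PUFA heifers with no fold limit. The exchange turned ENSBTAG00000011876 to 0.52 and ENSBTAG00000000957 to 0.50, by its construction. With the covariate it likewise gave -0.38 for ENSBTAG00000018417, -0.36 for ENSBTAG00000025762, 0.61 for ENSBTAG00000016656 and 0.59 for ENSBTAG00000008703 for plane in n-3 PUFA heifers. For n-3 PUFA on the low plane it gave -0.12 for ENSBTAG00000025762, 0.18 for ENSBTAG00000016656 and 0.055 for ENSBTAG00000000957. For the interaction it gave -0.28 for ENSBTAG00000025762, -0.45 for ENSBTAG00000019017, 0.62 for ENSBTAG00000016656 and 0.62 for ENSBTAG00000008703, and for the average plane effect -0.16, 0.28 and 0.30 for ENSBTAG00000018417, ENSBTAG00000008703 and ENSBTAG00000016656. Slope differences gave 0 members throughout. Leaving out single heifers gave 0 to 5 called members for plane in n-3 PUFA heifers and 0 elsewhere. Of 60 such fits, 16 called 1 or more: 5 without PUFA_Low replicate 11, and 1 without each of CON_Low 4, 8, 11 and 13, CON_High 1, 5, 9 and 14, PUFA_Low 4, 14 and 15, and PUFA_High 2, 11, 14 and 15.

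Fits with the reference gene as a covariate changed most, in the order plane in n-3 PUFA heifers, n-3 PUFA on the low plane, interaction and average plane effect. With the covariate alone the called members were 4, 1, 7 and 0, and 33, 14, 17 and 6 with no fold limit. Added after seeing the data were its square (6, 1, 5 and 0, or 40, 22, 27 and 11, beside 35.9%, 22.3%, 22.8% and 6.71% of all genes), the prefix block (5, 0, 5 and 0, or 33, 10, 14 and 6, beside 32.3%, 16.6%, 20.8% and 4.57%), the replicate block (4, 1, 3 and 0, or 29, 11, 9 and 6, beside 27.6%, 15.2%, 15.3% and 3.46%), the exchange of planes (4, 0, 2 and 0, or 33, 0, 6 and 17, beside 34.6%, 0%, 5.70% and 23.7%, with 4 for n-3 PUFA on the high plane beside 7.18%) and the abundant-gene share (0 in all, or 1, 0, 0 and 1, beside 1.18%, 0%, 0% and 3.50%). All of the 33 remained with the square and with the prefix block. Without single heifers the covariate counts with no fold limit were 28 to 38, 6 to 20, 12 to 28 and 6 to 9. Over 1.5 times lower for n-3 PUFA on the low plane were those without PUFA_Low replicate 7 (6), 10 (8) and 1, 6 and 12 (9 each), and over 1.5 times higher for the interaction that without PUFA_High replicate 4 (28). The cause of these changes was not tested. The rule gave 97 members with a prior count of 0.5 or DESeq2 size factors, 134 with Spearman's rho (94 shared), 128 and 73 with r above 0.75 and 0.85, 119 and 74 with mean CPM of 5 and 20, and 109 within diet groups. The planned motif and functional list results were not run.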

Other observations

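Genes in this paragraph were chosen after their values were seen. ENSBTAG00000001725 departed most from its line on the reference gene, with a residual SD of 1.01 on the log2 scale beside a median of 0.334 over the 97 members. Its lowest, median and highest CPM were 11.0, 79.1 and 731 in CON_High, 7.14, 123 and 520 in CON_Low, 3.92, 72.4 and 329 in PUFA_High and 10.3, 64.6 and 584 in PUFA_Low, so heifers within each group differed far more than the group medians did. ENSBTAG00000047367 followed the reference gene least in the 46 heifers of the upper range, with an r of 0.400, although its r over all 60 was 0.811.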
